A study of Drosophila melanogaster with 2 samples.

Results

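The regions described are peaks of Atf6-eGFP binding inside introns and far from any start of transcription in Drosophila melanogaster embryos. A peak belonged to them when its summit lay more than 2000 bp from the nearest transcription start site (TSS) of a protein-coding gene, inside the body of a protein-coding gene and in no annotated exon of any gene. Of the 5846 peaks in the main list of both replicates, 1241 met this rule (21.2%, 95% Wilson interval 20.2 to 22.3). They are called far-intron peaks, and a gene around one is called its host. The study mapped Atf6 by chromatin immunoprecipitation with sequencing (ChIP-seq), which sequences the DNA recovered with a protein, in whole embryos of strain Atf6-GFP collected over 0 to 24 h. These embryos made a fusion of Atf6 with enhanced green fluorescent protein, and an antibody against the fluorescent protein was used, although another label field names Atf6 as the antibody. There was 1 group of 2 biological replicates, with no untagged or stressed group, and the control library that the labels point to was not analysed here. Whole embryos pool every tissue and a full day of development, so a peak cannot be placed in a cell type, and the sequence that drives the fusion gene is not given in the sources used here.

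Atf6 belongs to the basic leucine zipper transcription factors and is made as a protein of the endoplasmic reticulum (ER) membrane. In vertebrates it is cut during ER stress, and the released part enters the nucleus and binds near start sites of chaperone genes. Introns of Drosophila genes, above all the long introns close to the start of developmental genes, are known to hold many enhancers, insulators and alternative promoters, so binding there can lie far from any gene's start.

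Each peak's signal is a score set by the authors whose scale is not stated, and it ranks peaks within 1 list. The number of reads behind the lists is unknown, so the depth behind a value cannot be given. Signal in a replicate is that of the strongest overlapping region in the replicate's own long ranked list. Of the 1241 far-intron peaks, 1239 had such a region in replicate 1 and 1220 in replicate 2. A replicate's own list means its shorter thresholded list. Where values are compared with background, this is the 26784 regions of the authors' ranked list of both replicates that met the same rule on location but were absent from the main list. These regions had a median signal of 18.4 (quartiles 10.5 and 28.5), far below those of the main list. Of all 28025 ranked far-intron regions, 4.43% were on the main list, against 5.54% of the 105559 ranked regions in all locations.

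The letters around the strongest summits show what the base counts given further on describe. The stretches shown run 50 bp to each side of the summit on the plus strand of dm6, read 5′ to 3′ from the RefSeq copy of that assembly, and capitals mark runs of 8 or more bases made of A and T alone. Tlk (chrX:3742164-3742264), CG32486 (chr3L:3060763-3060863), simj (chr3L:10682920-10683020), CHES-1-like (chrX:7706944-7707044) and osa (chr3R:17700526-17700626) host 5 of the 6 strongest far-intron peaks. Raf (chrX:2297656-2297756) is shown because its peak, also among the strongest, has no such run. CG5346 (chr3R:22524328-22524428) is shown because it is 1 of the 2 far-intron peaks with the core of the vertebrate ATF6 site, which capitals mark there as read on the plus strand.
Tlk: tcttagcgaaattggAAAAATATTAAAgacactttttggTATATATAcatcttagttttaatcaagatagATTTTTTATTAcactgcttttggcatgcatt
CG32486: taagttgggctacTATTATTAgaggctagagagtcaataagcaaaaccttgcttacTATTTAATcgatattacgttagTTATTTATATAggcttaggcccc
simj: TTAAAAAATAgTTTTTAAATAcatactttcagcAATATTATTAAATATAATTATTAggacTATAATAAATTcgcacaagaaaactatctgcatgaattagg
CHES-1-like: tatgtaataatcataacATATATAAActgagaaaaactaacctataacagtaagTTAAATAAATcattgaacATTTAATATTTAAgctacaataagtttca
osa: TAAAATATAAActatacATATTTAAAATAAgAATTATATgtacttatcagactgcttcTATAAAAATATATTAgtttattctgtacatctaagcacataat
Raf: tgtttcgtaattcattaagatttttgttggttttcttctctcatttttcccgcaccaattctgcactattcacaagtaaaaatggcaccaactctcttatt
CG5346: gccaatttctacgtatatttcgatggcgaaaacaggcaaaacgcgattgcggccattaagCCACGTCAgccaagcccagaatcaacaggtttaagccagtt
The simj window holds 4 runs of A and T that cover 54 bases, the longest of 23, and 20.8% of its bases are G or C. The osa window holds 4 runs covering 47 bases and 18.8% G or C, the Tlk window 3 runs covering 31 bases and 25.7% G or C. The Raf window has 0 such runs yet only 33.7% G or C, and the CG5346 window has 47.5%.

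The strongest far-intron peak lay in an intron of Tlk, which encodes the Tousled-like kinase that acts in chromatin assembly. It had a signal of 1174, with 649 in replicate 1 and 517 in replicate 2, and its summit lay 2317 bp from the nearest TSS (X, 3742025 to 3742386). The second lay in CG12769 (signal 984, 651 and 335 in replicates 1 and 2) and the third in CG32486 (signal 865, 470.4 and 393). All 3 lay far above the median far-intron signal in each replicate, which was 57.9 in replicate 1 and 48.4 in replicate 2. Each replicate's score is read against that replicate's median over the far-intron peaks, and not against the other replicate. All 15 strongest far-intron peaks were found in the own lists of both replicates, as were 97 of the strongest 100. Far-intron peaks made up 7 of the 100 strongest peaks of the main list, against 21.2% of the whole list.

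Hosts of the strongest peaks included several genes for chromatin regulators. The gene simj encodes a subunit of the Mi-2/NuRD nucleosome remodelling complex and held 2 of the 15, with signals of 794 (456 in replicate 1, 329 in replicate 2) and 507 (268 and 231). Mi-2, the ATPase gene of that complex, shared a peak of signal 537 (268 and 262) with Su(Tpl), which encodes the elongation factor ELL, because the genes overlap. The gene osa, for a subunit of the Brahma remodelling complex, had a peak of 754 (452 and 319) that lay 13505 bp from a protein-coding TSS. Gug, which encodes the corepressor Atrophin, had 574 (348 and 236). These hosts are named by their rank in signal, and whether chromatin genes hold more far-intron peaks than other genes was not tested.

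The remaining hosts of the 15 included genes for transcription factors and kinases. CHES-1-like, which encodes a forkhead transcription factor, had a peak of 784 (463 and 328). Hr3, a nuclear receptor gene of the ecdysone cascade, had a peak of 738 (471 and 264) in an intron that CG12912 and CG46321 also cover. Raf, the kinase gene of the mitogen-activated protein kinase cascade, had 666 (369 and 299.9), and Btk, a Tec family tyrosine kinase gene, had 583 (343 and 236). The Notch coactivator gene mam had 508 (308 and 219). The uncharacterised genes CG9328 and CG34417 had 616 (345 and 267) and 550.3 (301 and 241).

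**Figure D1:**
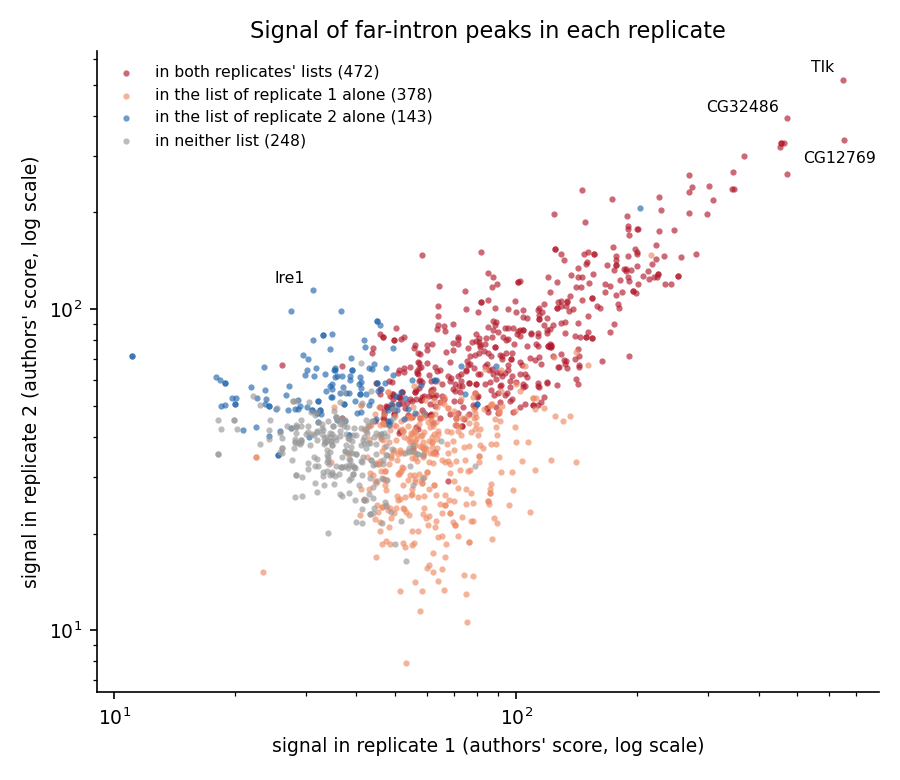
Signal of far-intron peaks in replicate 1 (x axis) and replicate 2 (y axis), both the authors' score on log scales, coloured by which replicate's own thresholded list holds each. Peaks without a ranked region in both replicates are not plotted, although the counts in the legend include them. The strongest peaks, such as Tlk at 649 and 517, were in both lists. The plotted peaks in neither list, from the 248 counted in the legend, lie at low signal in both. Ire1 stands out with 31.3 in replicate 1 and 115 in replicate 2.

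Far-intron peaks were somewhat weaker, and less often in both replicates' lists, than the other peaks of the main list pooled. Their signal ran from 2.43 to 1174 with a median of 98.5 (quartiles 76.3 and 145), against medians of 104 for the 878 intron peaks more than 500 and up to 2000 bp from a TSS, 97.3 for the 789 intergenic peaks more than 500 bp from a TSS and 108 for the 2699 promoter peaks within 500 bp of a TSS. Signals above the median of the whole list were found for 576 far-intron peaks (46.4%) and for 2347 of the other 4605 (51.0%), an odds ratio of 0.833 (95% interval 0.733 to 0.947, exact adjusted p = 0.00487, two-sided Fisher exact test). Peaks are not replicates, and neighbours in 1 host share a library and a locus, so these tests describe the lists and not embryos.

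**Figure D2:**
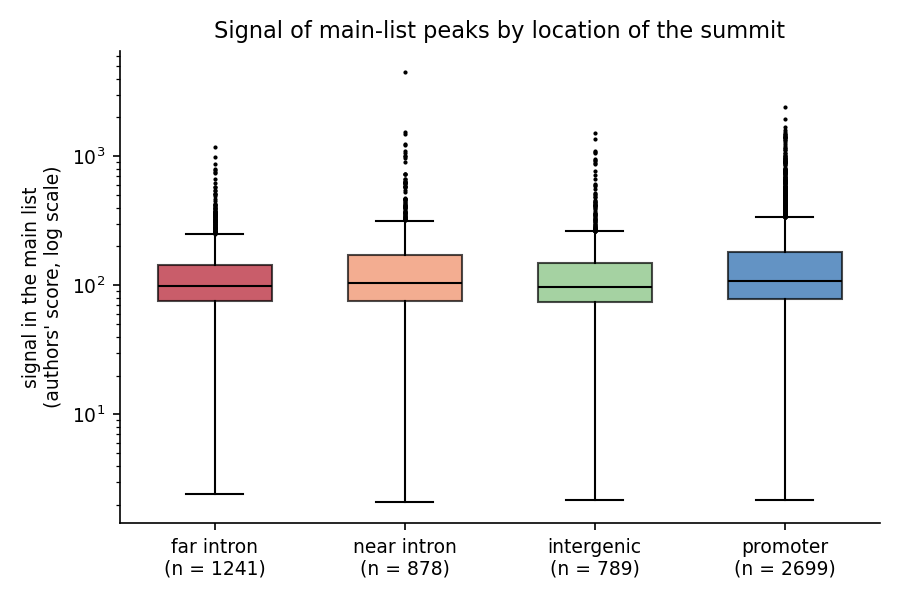
Signal in the main list (authors' score, log scale) by location of the summit, with boxes for quartiles, a line for the median and whiskers to 1.5 times the box. The boxes overlap almost fully, with medians of 98.5 for far introns, 104 for nearer introns, 97.3 for intergenic and 108 for promoter peaks.

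Of the far-intron peaks, 472 overlapped a peak in both replicates' own lists (38.0%), against 2028 of the other peaks (44.0%), an odds ratio of 0.780 (0.684 to 0.889, exact adjusted p = 4.63e-04, two-sided Fisher exact test). By class, both lists held 37.0% of intergenic peaks, 44.6% of the nearer intron peaks and 47.8% of promoter peaks, so far-intron and intergenic peaks had similar shares; single classes were not tested. The lists differed in this: that of replicate 2 held 615 far-intron peaks (49.6%) against 56.5% of the other peaks (46.5% of intergenic peaks), while the list of replicate 1 held 850 (68.5%) against 66.8%. A further 378 were in the list of replicate 1 alone, 143 in that of replicate 2 alone and 248 in neither. The conservative list held 922 far-intron peaks (74.3%) against 3614 of the others (78.5%, odds ratio 0.793, 0.684 to 0.920, exact adjusted p = 0.00284). Within strata of signal the difference in overlap with both lists no longer passed (odds ratio 0.918, exact adjusted p = 0.407), and that for the conservative list did (0.786, exact adjusted p = 0.0133), in a test chosen after seeing the data. Among peaks of the list of replicate 2 alone, the odds ratios were 0.998 for overlap and 1.06 for the conservative list (exact adjusted p = 1.00 for each). Replicate 1 was not left out of these measures. Overlap there meant overlap with the list of replicate 1, and the conservative list draws on both replicates.

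Among the far-intron peaks themselves, the stronger ones were more often in both replicates' own lists. The main-list signal draws on both replicates, so signal and presence in these lists are not independent measures. Of the 311 with signals up to 76.3, 31 were in both replicates' own lists (9.97%), and of the next 310, up to 98.5, 24 were (7.74%). Of the 310 from 98.6 to 145 the share was 42.6%, and of the 310 strongest, 285 were in both lists (91.9%, Wilson interval 88.4 to 94.5). The 15 strongest named above all belong to these 310. The other peaks of the main list showed a like rise, in groups with limits set on the whole list. For signals up to 76.3, then up to 102, up to 162 and above, both lists held 11.5%, 8.86%, 55.4% and 96.2% of them. Far-intron peaks in the same groups had 31 of 310, then 9.01%, 54.1% and 94.2%. The rise with signal was therefore not particular to far-intron peaks.

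A group of very weak peaks had a common feature. Of the 1241, 97 overlapped a main-list peak of higher signal (7.82%), a share close to the 338 of the other peaks (7.34%). These 97 had a median signal of 12.3, against 102 for the 1144 that overlapped no stronger peak, and they made up 91 of the 94 far-intron peaks with a signal under 50. The 3 weakest, in Khc-73 (2.43), kibra (2.66) and osp (3.06), were of this kind. Their replicate values are those of the stronger neighbour. Presence of such peaks in a replicate's own list or the conservative list can also come from the neighbour, since 1 bp of overlap counts. The 91 with signals under 50 are among the 311 with signals up to 76.3 described above. Most far-intron peaks, 1107 of 1241, had the width of 396 bp that was the most frequent in the list, so widths carry little information.

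Peaks on both sides of the distance limit had signals of a like size. The members nearest to the limit lay in Hnf4 (2002 bp, signal 98.0), in Atg1 together with CG42709 (2005 bp, 126) and in CG4577 (2007 bp, 93.1). Just outside it were peaks in Irk1 together with CG46310 (1999 bp, 96.7), Pde9 (1997 bp, 71.3) and cg (1997 bp, 91.5). The median distance was 5621 bp (quartiles 3230.0 and 9875), against 6847 bp for background regions, and the largest was 86064 bp. Distances of over 20000 bp were found for 98 far-intron peaks (7.90%) and for 12.7% of background regions.

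Far-intron peaks were found more often in the first intron of a host transcript than background regions were. Of the 1241 summits, 732 lay in a first intron (59.0%), against 12746 of 26784 background regions (47.6%), an odds ratio of 1.58 (1.41 to 1.78, exact adjusted p = 1.72e-14, two-sided Fisher exact test). First introns make up 37.1% of the 39.5 Mb of intron sequence that meets the rule. They held 4.99 far-intron peaks per 100 kb, and later introns held 2.05 per 100 kb. The introns around the summits were long, with a median of 13.3 kb (quartiles 6.82 and 24.3) for the shortest annotated intron over each. Of the 15 strongest peaks, 3 lay outside a first intron, those in osa, Raf and mam.

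Summits near starts of noncoding genes were few but more frequent than in background. A noncoding gene started within 500 bp of 23 far-intron summits (1.85%) and of 251 background regions (0.937%), an odds ratio of 2.00 (1.24 to 3.08, exact adjusted p = 0.00578, two-sided Fisher exact test). By annotated type these were 17 ncRNA genes, 4 tRNA genes, 1 snRNA gene and 1 snoRNA gene. The 17 include the genes named mir-9378, mir-4943 and snoRNA:Or-ACA9. The strongest was the osa peak already described, 165 bp from the start of lncRNA:CR46036 (signal 754), followed by peaks in beat-Ib near lncRNA:CR44867 (411 bp, 493) and lncRNA:CR44868 (366 bp, 318). The peak in dlp with a signal of 244 lay 50 bp from the start of lncRNA:CR45888. Of the tRNA genes, tRNA:Asn-GTT-1-8 in Ptr was nearest, at 20 bp from a summit with a signal of 75.9, and tRNA:Asn-GTT-1-6 lay 120 bp from a summit in EcR, the ecdysone receptor gene, with a signal of 70.2. With 1 peak and 1 background region per host the call was lost (odds ratio 1.28, exact adjusted p = 0.632).

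Density is given by chromosome arm, as far-intron peaks per 100 kb of intron sequence that meets the rule. Arm 2L held 241 far-intron peaks (3.89 per 100 kb), X 265 (3.72), 3L 250 (3.28), 2R 201 (3.04) and 3R 284 (2.65), with 3.14 over all arms. The sequence that meets the rule includes very long introns without peaks, such as the 1793 kb of Myo81F and the 629.8 kb of Pzl. Such introns lower the rate of their arm, so the order of the arms can depend on them. Whether reads can be placed in them was not tested. The rates for first and later introns and for gene lists rest on the same sequence. Arms 4 and Y make up 0.784% and 2.35% of that sequence and each held 0 of the 1241, which allows a share of up to 0.242% at a floor of 3 counts. Against background regions the share on X did not pass the test in the main list (21.4% against 22.0%, odds ratio 0.962, 0.834 to 1.11, exact adjusted p = 0.599, two-sided Fisher exact test). Against the more strongly scored 13392 background regions the direction turned and the test passed (21.4% against 18.7%, odds ratio 1.18, 1.02 to 1.36, exact adjusted p = 0.0254). It also passed in the list of replicate 1, where 232 of 926 far-intron peaks were on X (25.1%) against 20.7% of that list's background (odds ratio 1.28, exact adjusted p = 0.00232), but not in that of replicate 2 (20.4% against 20.6%, odds ratio 0.990, exact adjusted p = 0.961). Summits also fell more often on bases that the reference marks as repeats or low complexity, 267 of 1241 (21.5%) against 16.3% of background (odds ratio 1.40, 1.22 to 1.62, exact adjusted p = 6.47e-06).

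The bases at far-intron summits were richer in A and T than those at background summits. In the 101 bp around the summit the median share of G and C was 34.7% (quartiles 28.7 and 42.6), against 43.6% around background summits (37.6 and 49.5). At 500 bp to either side of far-intron summits it was 40.6%. Intron peaks nearer to a TSS had the same median as far-intron peaks, 34.7%, and promoter peaks had 37.6%. Runs of A and T alone of 12 bases or more were present at 354 far-intron summits (28.5%), at 29.6% of promoter summits and at 15.1% of background summits. Each share is a description, since the main list and the background were divided by signal.

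The stronger the far-intron peak, the lower was its share of G and C. The median was 41.6% for the 311 with signals up to 76.3, then 34.7% and 32.7% for the next groups of 310, and 29.7% for the 310 strongest. Promoter peaks had the same order, with 45.5% for the 610 with signals up to 76.3 and 29.7% for the 776 with signals of 162 or more. Peaks that overlapped a stronger one had a median of 43.6%, against 33.7% for the rest of the far-intron peaks. How fragmentation, amplification or sequencing treated AT-rich DNA was not tested.

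**Figure D3:**
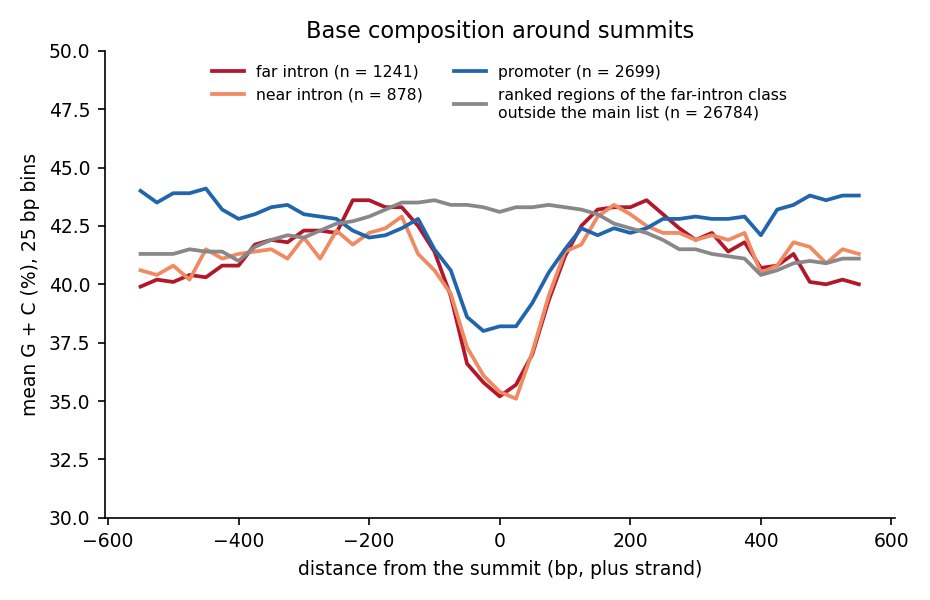
Mean share of G and C (%) in bins of 25 bp by distance from the summit, for far-intron, nearer intron and promoter peaks and for background regions. The far-intron and nearer intron lines dip at the summit, the promoter line dips less, and the background line has no dip. The y axis does not start at 0.

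The site of vertebrate ATF6 was rare at far-intron summits, as it was in background. Its core TGACGTGG, searched on both strands within 50 bp of the summit, occurred at 2 of 1241 far-intron summits (0.161%, Wilson interval 0.0442 to 0.586) and at 31 background summits (0.116%), an odds ratio of 1.39 (0.161 to 5.49, exact adjusted p = 0.764, two-sided Fisher exact test over 19 words). The 2 peaks were weak: that in CG5346, whose sequence is shown above, had a signal of 25.1 (23.4 in replicate 1, 15.2 in replicate 2) and was listed by replicate 1 alone. That in Mef2, a muscle transcription factor gene, had 52.3 (24.2 and 39.3) and was in neither list. The word CCACG, part of the ER stress element that ATF6 binds, occurred at 6.04% of far-intron summits and 10.1% of background summits (odds ratio 0.575, 0.448 to 0.730, exact adjusted p = 6.62e-06). ACGT, found at the centre of many leucine zipper sites, occurred at 174 far-intron summits, against 16.9% of background summits (odds ratio 0.803, exact adjusted p = 0.0258). At promoter summits TGACGTGG occurred at 0.0741% (odds ratio for far-intron summits 2.18, exact adjusted p = 0.706). In windows 500 bp to either side of far-intron summits TGACGTGG had 0.0806%, CCACG 8.86% and ACGT 16.5%. Words can overlap, since ACGT lies inside TGACGTGG.

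Words rich in A and T were more frequent at far-intron summits than in background. The core promoter word TATAAAA occurred at 95 summits (7.66%) against 3.36% of background (odds ratio 2.39, 1.90 to 2.98, exact adjusted p = 3.28e-11). The letters TGATAA, which zinc finger proteins of the Pannier and Serpent type bind, occurred at 10.4% against 5.89% (odds ratio 1.85, exact adjusted p = 2.65e-08). The homeodomain word TAATTA occurred at 9.83% against 6.56% (odds ratio 1.55, exact adjusted p = 9.83e-05), and a run of 8 A at 9.59% against 7.14% (odds ratio 1.38, exact adjusted p = 0.00638). In windows 500 bp to either side of far-intron summits TATAAAA had 4.92%, TGATAA 6.97% and TAATTA 7.78%. The run of A had 9.15% there (Wilson interval 8.07 to 10.3), close to its share at the summit. In the list of replicate 2 alone, without replicate 1, ACGT had an odds ratio of 0.768 (exact adjusted p = 0.0889), the homeodomain word 1.34 (exact adjusted p = 0.149) and the run of A 1.29 (exact adjusted p = 0.232), so these calls were lost in the smaller list with their directions kept. By main-list signal, TATAAAA occurred at 2.26% of the 310 far-intron peaks up to 76.3 and at 7.89%, 9.91% and 11.1% of the next 355, 333 and 243, while TGATAA had 9.35%, 12.7%, 7.81% and 11.9% and so no such order.

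These calls were not independent of base composition. In an exact test within strata of 5 percentage points of G and C, chosen after seeing the data, TGATAA alone of these kept its call in the same direction (odds ratio 1.32, 1.09 to 1.60, exact adjusted p = 0.0387). There TATAAAA had an odds ratio of 1.02 (exact adjusted p = 0.980), the homeodomain word 0.926 (exact adjusted p = 0.761), CCACG 0.981 (exact adjusted p = 1.00) and ACGT 0.910 (exact adjusted p = 0.759). The run of A turned to 0.742 (exact adjusted p = 0.0387), rarer than in background of like composition. The GAGA factor word GAGAGAG, which had not passed (2.01% against 1.68%, odds ratio 1.20, exact adjusted p = 0.537), had 1.87 there (1.24 to 2.83, exact adjusted p = 0.0387). At 500 bp to either side of far-intron summits GAGAGAG occurred in 2.70% of windows. TGATAA was not called against promoter summits, without or within such strata.

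Words of promoter factors were rarer at far-intron summits than at promoter summits. TATCGATA, the site of the promoter factor Dref, occurred at 3 far-intron summits (0.242%) and at 62 of 2699 promoter summits (2.30%), an odds ratio of 0.103 (0.0207 to 0.317, exact adjusted p = 2.18e-06, two-sided Fisher exact test). GGTCACAC, the site of the promoter factor M1BP, occurred at 3 (0.242%) and 38 (1.41%), an odds ratio of 0.170 (0.0335 to 0.537, exact adjusted p = 0.00191). Background regions also had few, 0.119% with TATCGATA and 0.161% with GGTCACAC. Neither word was called against them (odds ratios 2.03 and 1.51, exact adjusted p = 0.347 and 0.621). The far-intron and promoter groups were divided by distance to a TSS, so these differences cannot be told apart from those of location. ACGT was also rarer than at promoter summits (174 of 1241 against 18.8%, odds ratio 0.703, exact adjusted p = 0.00188), as was the E-box CAGCTG (3.46% against 5.37%, odds ratio 0.632, exact adjusted p = 0.0374), and the run of 8 A was more frequent (9.59% against 7.08%, odds ratio 1.39, exact adjusted p = 0.0353). Within strata of G and C the calls of TATCGATA (odds ratio 0.0974, exact adjusted p = 2.66e-06), GGTCACAC (0.179, exact adjusted p = 0.00982) and ACGT (0.737, exact adjusted p = 0.00982) held. Those of CAGCTG (exact adjusted p = 0.290) and the run of A (exact adjusted p = 0.306) were lost there. Leaving out replicate 1 ended the calls of GGTCACAC (odds ratio 0.239, exact adjusted p = 0.163), CAGCTG (0.681, exact adjusted p = 0.297) and the run of A (1.41, exact adjusted p = 0.163), all in the same direction. Leaving out replicate 2 ended those of GGTCACAC (0.418) and CAGCTG (0.729), again in the same direction (exact adjusted p = 0.393 for each). TATAAAA occurred at 7.85% of promoter summits (odds ratio for far-intron summits 0.972, 0.748 to 1.26). TGATAA occurred at 8.23% (odds ratio 1.29, exact adjusted p = 0.0953) and TAATTA at 8.52% (1.17, exact adjusted p = 0.300), and neither was called. Within strata of G and C they had 1.17 (exact adjusted p = 0.418) and 1.06 (exact adjusted p = 0.846). A word is a match of letters and not a bound site.

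**Figure D4:**
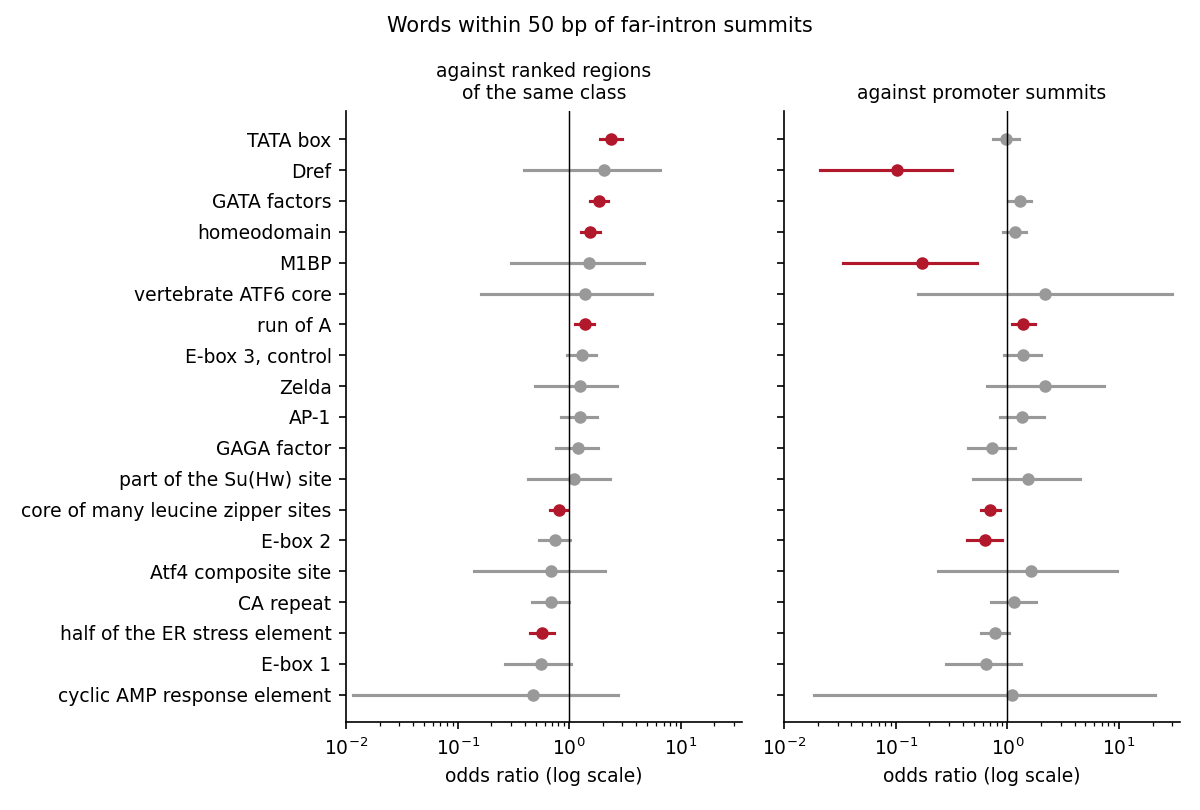
Odds ratios with 95% intervals on a log scale for 19 words within 50 bp of far-intron summits, against background regions (left) and promoter summits (right), red where the adjusted p was under 0.05 without strata. E-box 1 has the central bases C and G, E-box 2 has G and C, and E-box 3 has T and A. The TATA box word stands highest of the called words on the left at 2.39, and the Dref word lowest on the right at 0.103.

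The far-intron peaks lay in 617 host genes, 14.2% of the 4339 protein-coding genes with any intron sequence that meets the rule. Of these hosts, 322 had 1 far-intron peak, 136 had 2 and 74 had 3. The 50 hosts with 5 or more held 328 peaks (26.4% of all). Hosts were large: their median intron sequence meeting the rule was 15.6 kb, against 0.825 kb in the other eligible genes, and the share of genes that host a peak was 4.07% under 5 kb, 29.1% at 5 to 20 kb and 46.0% at 20 kb or more. Neighbouring summits in 1 host had a median spacing of 3134 bp. In 48 cases a peak had more than 1 host because genes overlap.

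Hosts also carried peaks at their own promoters more often than other eligible genes did. A promoter peak was present at 319 of 617 hosts (51.7%, Wilson interval 47.8 to 55.6) and at 985 of 3722 eligible genes without a far-intron peak (26.5%, 25.1 to 27.9). The gap was seen at each size: under 5 kb of eligible sequence it was present at 60 of 120 hosts and 789 of 2831 other genes (27.9%), at 5 to 20 kb at 55.7% and 24.1%, and at 20 kb or more at 48.6% (42.5 to 54.7) and 17.8% (13.9 to 22.6). No test was run on these shares. Both kinds of peak come from the same list, and the number of start sites per gene was not taken into account.

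The gene sbb, which encodes a zinc finger corepressor, had the most far-intron peaks, with 14 in 46.8 kb of eligible sequence (29.9 per 100 kb), of which 8 were in both replicates' own lists. All 14 lay in a first intron and their signals ran from 11.3 to 412. The homeodomain gene hth had 12 (signals 4.63 to 239.7, of which 4 were in both lists and 4 overlapped a stronger peak). The adhesion gene kirre, which acts in myoblast fusion, had 11 in 267 kb, only 4.12 per 100 kb. Raf, Snoo, the Drosophila relative of the Ski and Sno corepressors, and Pdp1, a leucine zipper gene of the circadian clock, had 10 each. Eip75B, tai, bun and ftz-f1 had 9 each, and none of the 9 in the nuclear receptor gene ftz-f1 were in both lists (signals 11.3 to 136). These hosts differed in placement. First introns held all 10 in Snoo and in Pdp1, 5 in Eip75B and 3 in tai. They held 2 of the 12 in hth, 1 each in kirre, bun and ftz-f1, and 0 in Raf.

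Among hosts with 5 or more far-intron peaks, CHES-1-like had the highest density. Its 7 far-intron peaks lay in 7.87 kb of eligible sequence (88.9 per 100 kb), and all 7 were in both replicates' own lists. Their signals were 784, 365, 336, 331, 293, 245 and 182, with 463, 201, 174, 199, 185, 126 and 80.3 in replicate 1 and 328, 178, 156, 136, 133, 121 and 98.0 in replicate 2. Raf had 10 in 20.1 kb (49.7 per 100 kb), of which 6 were in both lists: 666, 418, 261, 178, 126 and 96.9. Other hosts with 5 or more peaks and high densities included CG6966 (57.2 per 100 kb), raw (50.2) and Tis11, an RNA decay factor gene (32.4).

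**Figure D5:**
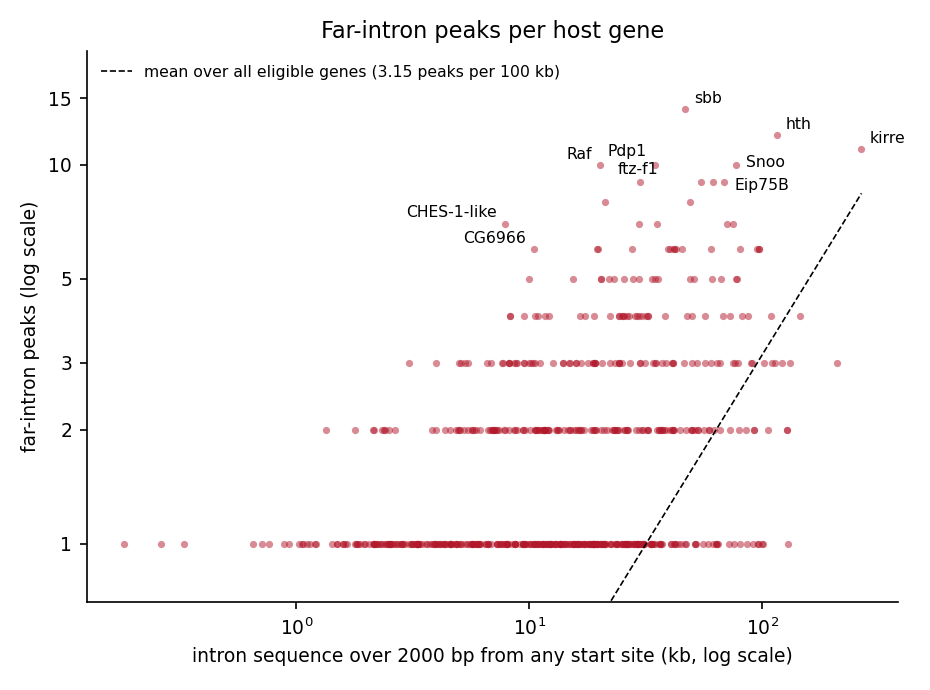
Far-intron peaks per host gene (y axis, log scale) by the host's intron sequence that meets the rule (x axis, kb, log scale), 1 point per host. The dashed line is the mean rate of 3.15 per 100 kb over all eligible genes, and CHES-1-like, Raf and sbb lie far above it while kirre, with 11 peaks, lies close to it.

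Gene lists were described by how many of their eligible genes host a far-intron peak, beside the 14.2% and 3.15 peaks per 100 kb over all eligible genes. Listed genes tend to be long (the median eligible sequence over all eligible genes was 1.41 kb), so the rate is given beside the count. Among genes of the ecdysone response, which relay the moulting hormone, 11 of 15 were hosts, with 50 peaks at 9.01 per 100 kb. Hr3 led (738), followed by the cyclin-dependent kinase gene Eip63E (429, with 247 in replicate 1 and 176 in replicate 2). The nuclear receptor gene Hr4 had 6 peaks of 88.5 to 356, of which 4 were in both lists. The receptor gene EcR itself had 2, of 124 and 70.2, neither in both lists.

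Genes of the EGFR, FGFR, Notch, Wnt, Hedgehog and Dpp pathways were hosts in 13 of 26 cases, at 7.24 peaks per 100 kb. The strongest were in aos, whose product inhibits EGF receptor signalling (313, with 181 and 123 in replicates 1 and 2), and dlp, a glypican gene (286, with 149 and 138). Genes of the circadian clock and second messengers were hosts in 10 of 18 cases (6.09 per 100 kb), led by Pdp1 (407, with 173 and 219.6) and the clock repressor gene cwo (335, with 193 and 132). Homeodomain and other patterning factors were hosts in 7 of 26 cases (6.52 per 100 kb), with 26 of the 38 peaks in sbb and hth. The sbb peak of 412 had 203 in replicate 1, outside that replicate's own list, and 206 in replicate 2.

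Other lists lay nearer to the overall rate or below it. BTB and GAGA-type factors were hosts in 9 of 13 cases, with 14 peaks in 350.2 kb, led by ken (165, with 112 and 53.0) and bab1 (162, with 80.8 and 81.1). Muscle genes were hosts in 5 of 19 cases (5.06 per 100 kb), led by the RNA-binding protein gene how (196, with 104 and 86.1) and the Z-disc gene Zasp52 (185, with 100.2 and 83.5). RNA-binding genes were hosts in 10 of 18 cases at 1.58 per 100 kb, led by how and shep (189.8, with 113 and 82.7).

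Cell adhesion genes and ion channel genes lay below the overall rate. Cell adhesion and axon guidance genes were hosts in 11 of 31 cases at 1.98 per 100 kb, led by kirre (369.9, with 233 and 146) and the guidance cue gene sli (257, with 161 and 101). Ion channel and receptor genes were hosts in 4 of 23 cases, with 5 peaks in 675 kb (0.741 per 100 kb), led by Ih (225, with 129 and 102) and the potassium channel gene Shab (148, with 78.4 and 65.3). Of the 8 Hox genes, which set segment identity, 2 were hosts (2.02 per 100 kb): Antp with a strongest peak of 143 (73.0 and 62.7), 20270 bp from a TSS, and Ubx with 134 (73.2 and 57.6), 29970 bp from a TSS.

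Genes of the ER stress response had 4 hosts among 15 eligible genes. Their rate of 11.9 per 100 kb rests on 7 peaks in 58.9 kb, since the median eligible sequence of these genes was only 0.508 kb. Ire1, which encodes the ER stress sensor that splices Xbp1 mRNA, had a peak with a signal of 145 located 2782 bp from a TSS (3R, 19858311 to 19858706). The replicates differed there, with 31.3 in replicate 1, below the far-intron median of 57.9, and 115 in replicate 2, above the median of 48.4, and replicate 2 alone listed it. Atf3, a leucine zipper gene, had 3 peaks of 116 (67.8 and 49.1), 108 (53.6 and 51.1) and 54.7 (31.9 and 26.9), of which the second alone was in both lists. The gene cnc, the Drosophila Nrf2, had 109.7 (62.5 and 53.2), in both lists, and 95.4 (51.8 and 44.9), in the list of replicate 1 alone. CrebA, a regulator of secretory genes, had 69.0 (32.0 and 34.1), in neither list.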

How the data were processed

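Peak lists on dm6 were used as the authors deposited them, from 2 biological replicates. The deposited signal of each peak is a score set by the authors, and the lists also give the IDR (irreproducible discovery rate) as a score and as its −log10, per the authors' files. Which aligner and peak caller made them is not given in the sources used here. Of the ranked far-intron regions, 26 met an IDR of 0.01 but were absent from the main list and were counted as background. TSSs, exons and introns came from Ensembl release 115 (BDGP6 version 54), with exons of transposable elements counted as exons, and bases from the RefSeq copy of the assembly. Overlap meant at least 1 bp. Two-sided Fisher exact tests were adjusted (Benjamini-Hochberg) in families of 3 list tests, 4 location tests and 19 words, with 0.05 as the threshold. The word tests were tried on ranked far-intron regions split at random, without and with hits of TGATAA added. The list and location tests were not tried in this way. Tests within strata were exact conditional tests of a common odds ratio, given with the Mantel-Haenszel estimate. Intervals are 95% intervals that cover counting error only. The genes named were hosts of the 15 strongest peaks, the 10 hosts with most peaks, 2 hosts per gene list and the peaks at the limit of 2000 bp. The other peaks of CHES-1-like, Raf, Hr4, EcR and the ER stress genes, the densest hosts, the weakest peaks, those near noncoding genes and those with the ATF6 core were named after their values were seen. The result of 1 gene list and 1 dense host are not reported here. Members, lists and words were chosen with earlier results of these data known. The tools were SciPy 1.17.1, statsmodels 0.14.6, pandas 2.3.3, numpy 2.4.6 and matplotlib 3.10.9 under Python 3.11.15.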

Additional observations from a re-analysis of the deposited data

How the results depend on the processing

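Of 19 alternatives, 15 were planned and 4 were chosen after seeing the data: transposable element exons not counted, peaks that overlap a stronger peak left out, and strata of signal or of G and C. The first intron and repeat results kept direction and call in all alternatives run (odds ratios 1.41 to 1.85 and 1.33 to 1.65). Neither was run within strata of G and C, although far-intron summits were richer in A and T than background. Start sites of protein-coding transcripts alone changed nothing, because all transcripts of protein-coding genes carry that type. The far-intron peak count was 675 over 5000 bp from a TSS, 576 in the stronger part of the list and 592 with 1 peak per host; host genes numbered 352 over 5000 bp and 394 in the stronger part. Leaving out a replicate gave 657 to 926 peaks and 404 to 516 hosts, and odds ratios of 0.691 to 0.998 for overlap with both lists, 0.750 to 1.06 for the conservative list and 0.990 to 1.28 for the X share. The overlap and conservative list values still drew on both replicates, because only the peaks tested came from 1 replicate's list. With 1 peak per host, the strongest of each by construction, the odds ratios reversed for signal (1.71), overlap with both lists (1.29) and the conservative list (1.10), and that for noncoding starts fell to 1.28. Overlap with both lists had 0.918 in strata of signal. The X share reversed to 1.02 over 1000 bp, 1.01 in the stronger part, 1.18 against the stronger background (exact adjusted p = 0.0254), 1.00 without overlapping peaks and 1.28 without replicate 2.

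Words called against background numbered 6, against 3 to 8 when a replicate was left out and 3 in strata of G and C, where TAATTA (0.926) and AAAAAAAA (0.742) reversed. Words called against promoters numbered 5, but 3 over 5000 bp, 3 in the conservative list, 2 in the stronger part of the list, 2 within 25 bp, 3 in strata and 2 to 3 without a replicate. TGACGTGG against background reversed to 0.996 within 100 bp, and to 0 hits, an odds ratio of 0, in the conservative list, the stronger part, with 1 peak per host and without either replicate. Against promoters it was 0 in the conservative list, with 1 peak per host and without replicate 1, and had no finite odds ratio in 2 alternatives. Causes of these changes were not tested, apart from smaller lists by construction. No paired analysis was possible because there is 1 group.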
